A study of Homo sapiens with 18 samples.

Results

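The EGFR family is described here by 9 genes that encode receptors, ligands and inhibitors of the epidermal growth factor receptor system, out of 26485 genes listed in both deposited tables. They were found by gene symbol in all 18 RNA-sequencing libraries of PANC-1 cells, and all 9 were present. EGFR, ERBB2 and ERBB3 are receptors. AREG (amphiregulin), EREG (epiregulin), HBEGF (heparin-binding EGF-like growth factor) and TGFA (transforming growth factor alpha) are ligands, and ERRFI1 (also called MIG6) and LRIG1 are inhibitors. PANC-1 is an established human pancreatic ductal adenocarcinoma cell line. All groups were labelled as this line, and the labels name no other engineered change. One experiment compared Control siRNA with each of 2 siRNAs against PKR (PKR siRNA 1, PKR siRNA 2), collected 72 h after transient transfection, and the other compared the solvent DMSO with C16 at 400 nM and at 800 nM, collected after 72 h of treatment. PKR is the kinase encoded by EIF2AK2, which is activated by double-stranded RNA, and C16 is a small-molecule inhibitor of it. Each of the 6 groups had 3 libraries. The siRNA libraries were labelled run 1 and the C16 libraries run 2, and the labels do not say what a run is. The run cannot be told apart from the kind of treatment, and values were compared only within an experiment.

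Receptors of this family sit in the cell membrane and pair with one another when a ligand binds, which switches on their kinase domains and, through adaptor proteins, the RAS and ERK cascade and phosphoinositide 3-kinase. ERBB2 has no known ligand and acts as a partner, while ERBB3 has little kinase activity and binds neuregulins. The ligands are made as membrane-bound precursors and are released by ADAM proteases, and several of them, with the inhibitor ERRFI1, are themselves transcribed in response to receptor signalling. In pancreatic cancer, EGFR and its ligands are widely expressed.

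The ligand genes carried the largest differences, so the sequences ahead of the 3 ligand genes with the most reads are shown. Each is the 130 bases before the RefSeq start site on GRCh38.p14, written on the strand of the gene. Capitals mark a cyclic AMP response element (CRE, TGACGTCA) or its first 5 letters (TGACG, which the full CRE contains), both searched on both strands, a TATA box (TATAAA, gene strand only) and a GC box (GGGCGG, both strands, so it can be written CCGCCC). Neighbouring GC boxes can overlap, as a pair of them do in HBEGF.
AREG, chr4:74445006-74445135, plus strand: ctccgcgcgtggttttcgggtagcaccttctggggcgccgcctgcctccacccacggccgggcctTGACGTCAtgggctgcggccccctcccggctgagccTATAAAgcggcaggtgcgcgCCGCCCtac
EREG, chr4:74365015-74365144, plus strand: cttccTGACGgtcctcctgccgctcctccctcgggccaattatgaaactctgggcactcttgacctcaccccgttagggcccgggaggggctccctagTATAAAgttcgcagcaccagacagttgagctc
HBEGF, chr5:140346604-140346733, minus strand: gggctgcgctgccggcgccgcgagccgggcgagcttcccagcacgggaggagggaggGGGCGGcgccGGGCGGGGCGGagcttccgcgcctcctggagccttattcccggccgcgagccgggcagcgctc
AREG had a full CRE 65 bases and a TATA box 29 bases before its RefSeq start. In the deposited coordinates AREG begins at 74445098, inside the stretch shown, so these distances hold for the RefSeq start only. EREG had a TATA box 32 bases before its start and only the first 5 letters of the CRE. HBEGF had neither of them in this stretch and had the highest GC content of the 3, at 80.8% against 72.3% for AREG and 60.0% for EREG. Over 35116 RefSeq promoter windows of 300 bases, 1.85% held the CRE, 7.33% the TATA box, 45.0% the GC box and 24.6% the 5-letter run. Of the 13 windows matched to 8 of the 9 members, 1 held the CRE, 3 the TATA box, 8 the GC box and 3 the 5-letter run. A match is a description of the letters only. AREG and EREG are neighbours on the same strand of chromosome 4, and 56.3 kb separate them in the coordinates of the deposited tables (hg38).

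The libraries held 1512940 to 1873906 reads on genes in the siRNA experiment and 894145 to 1474308 in the C16 experiment, so genes with few reads are imprecise, most of all with C16. The deposited values are read counts normalized by the authors with TMM, and levels below are in these normalized counts. EIF2AK2 was at 93.5 to 103 normalized counts in the control libraries, at 9.65 to 13.6 under PKR siRNA 1 and at 7.96 to 9.40 under PKR siRNA 2, which matches the labels. With C16, EIF2AK2 differed from DMSO by -0.22 at 400 nM and 0.01 at 800 nM (log2), and neither passed the test. The 6 epithelial markers summed to 3052 to 10233 normalized counts. Of 5 leukocyte markers 3 were at 0 in every library, PTPRC and CD3E among them, and the list summed to 149 to 173 in the control, 208 to 276 under PKR siRNA 1, 197 to 206 under PKR siRNA 2, 52.4 to 57.3 in DMSO, 141 to 171 at 400 nM and 107 to 123 at 800 nM. Of 6 fibroblast markers COL1A2 and DCN were at 0 in every library, and the list summed to 26.3 to 139 with siRNA and 80.2 to 184 with C16. The 4 endothelial markers summed to at most 2.14. The part of these lists in the results was not tested. The labels name the libraries of a group as replicates but not as separate cultures, so p-values measure the spread between these libraries, which may be technical.

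PKR siRNA 2 lowered 3 of the 4 ligand genes and raised ERBB2. AREG was 6.04-fold lower than with Control siRNA, EREG 4.53-fold lower and HBEGF 2.01-fold lower, and ERBB2 was 1.81-fold higher. PKR siRNA 1, aimed at the same target, raised HBEGF by 1.65-fold and had no member called lower by limma. C16 raised HBEGF by 3.02-fold at 400 nM and 3.95-fold at 800 nM and lowered ERBB2 by 1.54-fold and 2.16-fold, with EGFR raised by 1.57-fold at 400 nM. These folds were computed on log2(normalized count + 1) with limma, and a gene was called raised or lowered at an adjusted p under 0.05 and a fold over 1.5. Members with a lower mean came from a fit without a filter on low values. On few reads, that fit called TGFA lower with PKR siRNA 2, EREG higher at both C16 doses and AREG higher at 400 nM.

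The calls were read against those over all genes tested. In the siRNA experiment 6 members averaged 10 or more normalized counts per library and were tested among 10593 genes, of which 21.1% were called with PKR siRNA 1 (8.53% raised, 12.6% lowered) and 23.5% with PKR siRNA 2 (10.8% raised, 12.8% lowered). Of those 6, PKR siRNA 1 had 1 raised and 0 lowered, and PKR siRNA 2 had 1 raised and 3 lowered. The 0 lowered with PKR siRNA 1 in limma became 2 at an unadjusted p under 0.05 and any fold, 1 with edgeR and 0 with DESeq2. Those 2, ERBB2 and ERRFI1, also had an adjusted p under 0.05 in limma (0.0276 and 3.2e-10) and were under 1.5-fold. In the C16 experiment 4 members were tested among 9963 genes, of which 12.5% were called at 400 nM (7.08% raised, 5.45% lowered) and 25.7% at 800 nM (11.6% raised, 14.1% lowered). Of those 4, 400 nM had 2 raised and 1 lowered, and 800 nM had 1 raised and 1 lowered. The other members were read from a fit without a filter on low values: ERBB3, TGFA and LRIG1 with siRNA, and also AREG and EREG with C16. AREG with siRNA and HBEGF with C16 reached the mean of 10 only through the groups in which they were high, so counts over the members that passed are descriptions. Libraries of a group can also lie wholly above or below those of another. Over all genes tested this was the case, above and below in turn, for 24.5% and 27.2% with PKR siRNA 1 against the control, 25.9% and 28.4% with PKR siRNA 2, and 29.8% and 30.9% for PKR siRNA 2 against PKR siRNA 1. It was so for 20.4% and 19.1% at 400 nM and 26.1% and 25.7% at 800 nM against DMSO, and for 13.4% and 17.0% at 800 nM against 400 nM.

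**Figure D1:**
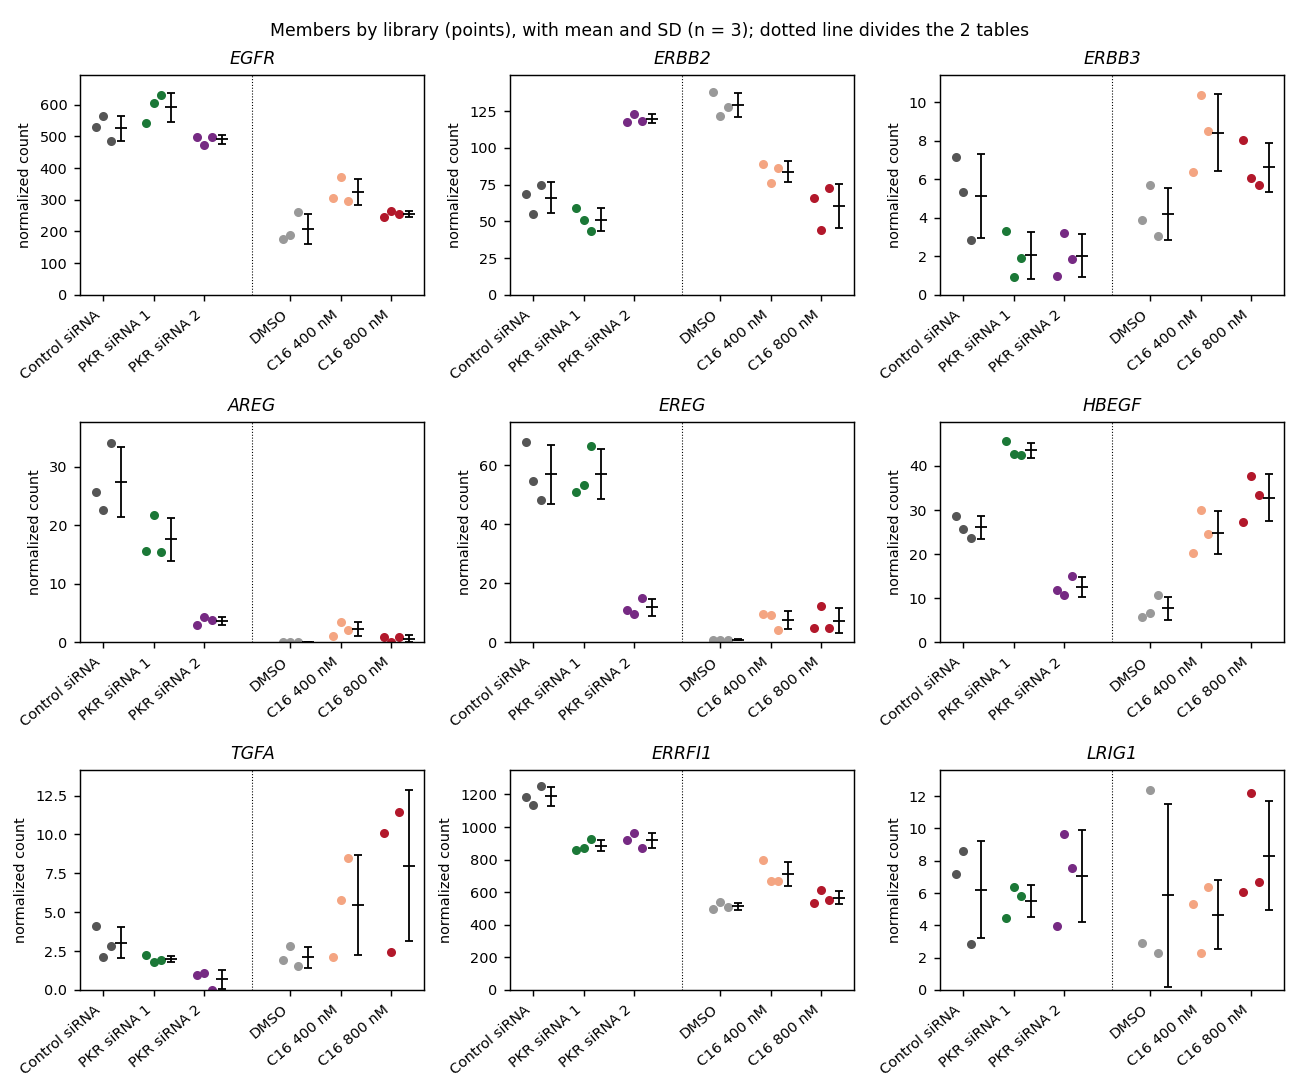
Normalized counts (TMM, vertical axes, one panel a gene) of the 9 members in each of the 18 libraries, with points for libraries and bars for the mean and SD of 3 libraries. The siRNA and C16 experiments were normalized separately and are not comparable in level; AREG lies at 2.98 to 4.29 with PKR siRNA 2 against 22.6 to 34.1 with Control siRNA, and ERBB2 at 43.9 to 72.5 with 800 nM C16 against 122 to 138 with DMSO.

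EGFR, the founding receptor, was at 529, 563 and 485 normalized counts in the 3 Control siRNA libraries. PKR siRNA 1 gave 541, 607 and 629, and PKR siRNA 2 gave 498, 474 and 499. Both PKR siRNA groups overlapped the control. The log2 fold change was 0.17 ± 0.07 (SE) with PKR siRNA 1 (adjusted p = 0.0261, under 1.5-fold) and -0.10 ± 0.07 with PKR siRNA 2 (adjusted p = 0.221, 95% interval -0.23 to 0.03). In DMSO, EGFR was at 175, 189 and 262, and C16 gave 306, 372 and 297 at 400 nM and 246, 264 and 256 at 800 nM. All 400 nM libraries stood above all DMSO and all 800 nM libraries, while the 800 nM range lay across the highest DMSO library. EGFR rose by 0.65 ± 0.10 at 400 nM (adjusted p = 5.25e-07) and differed by 0.31 ± 0.10 at 800 nM (adjusted p = 0.00814, under 1.5-fold). The step from 400 nM to 800 nM was -0.34 ± 0.10 (adjusted p = 0.0142, under 1.5-fold), in a comparison that called 5.09% of genes (1.13% raised, 3.95% lowered). Between the doses 0 of the 4 tested members were called by limma, edgeR or DESeq2, and 3 were lower at an unadjusted p under 0.05. These 3 also had an adjusted p under 0.05 in limma and were under 1.5-fold. The call at 400 nM rested on its margin over 1.5-fold: it became 0.55 without the second 400 nM library and 0.54 without the first DMSO library, both under that fold. EGFR (chr7:55019032-55207338, plus strand) shares 2.83% of its exon bases with EGFR-AS1 on the opposite strand, and whether counting used strand is not given in the sources used here.

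ERBB2 (chr17:39688084-39728662, plus strand), the receptor also known as HER2, was at 68.8, 54.8 and 74.9 normalized counts with Control siRNA. PKR siRNA 2 gave 117, 123 and 118, and PKR siRNA 1 gave 58.9, 50.8 and 43.4. The PKR siRNA 2 libraries were all above the control ones, and those of PKR siRNA 1 overlapped them. ERBB2 rose by 0.86 ± 0.14 on the log2 scale with PKR siRNA 2 (adjusted p = 3.64e-07), whereas with PKR siRNA 1 it differed by -0.37 ± 0.14 (adjusted p = 0.0276, under 1.5-fold). With C16 the DMSO libraries held 138, 122 and 128, the 400 nM libraries 89.3, 76.1 and 86.2, and the 800 nM libraries 65.6, 43.9 and 72.5. The 3 groups did not overlap and were ordered by dose. Of all genes tested, 19.1% lay wholly below DMSO at 400 nM, and 17.0% were wholly lower at 800 nM than at 400 nM. The share with both was not counted. ERBB2 fell by 0.62 ± 0.14 at 400 nM (adjusted p = 0.000479) and by 1.11 ± 0.14 at 800 nM (adjusted p = 1.79e-09), and the doses differed by -0.49 ± 0.14 (adjusted p = 0.012, under 1.5-fold). Without the second 400 nM library or the first DMSO library the change at 400 nM was -0.55 or -0.57, under 1.5-fold, and without the third 800 nM library the difference between doses was -0.63 and was called.

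The summed level of the 6 epithelial markers (KRT8, KRT18, KRT19, EPCAM, CDH1 and KRT7) moved in the same directions as ERBB2. Control siRNA libraries summed to 5358 to 5451 normalized counts, those of PKR siRNA 1 to 3052 to 3280 and those of PKR siRNA 2 to 9586 to 10233. With DMSO it was 7171 to 7572, at 400 nM 6033 to 6544 and at 800 nM 5172 to 5685. The 6 fibroblast markers also did so for most groups, at 84.2 to 117 with Control siRNA, 26.3 to 32.2 with PKR siRNA 1, 130.3 to 139 with PKR siRNA 2, 149 to 184 in DMSO, 119.9 to 181 at 400 nM and 80.2 to 117 at 800 nM. The 400 nM range overlapped that of DMSO. The sum of the 5 leukocyte markers, given above, did not follow ERBB2 and was above its control in every treated group. A sum follows the most abundant genes of its list, so it need not hold for each marker. With PKR siRNA 1, ERBB2 itself overlapped the control and was under 1.5-fold. The part of these lists in the ERBB2 result was not tested.

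ERBB3 (chr12:56080025-56103507, plus strand), the neuregulin-binding receptor, was barely detected. The control libraries had 2.84 to 7.19 normalized counts, those of PKR siRNA 1 had 0.907 to 3.33 and those of PKR siRNA 2 had 0.995 to 3.22, with overlap in both comparisons. It differed from the control by -1.02 with each siRNA (adjusted p = 0.154 and 0.147, no filter), and the 95% interval ran from -2.05 to 0.02 for both. DMSO libraries were at 3.05 to 5.71, and C16 gave 6.38 to 10.4 at 400 nM and 5.73 to 8.07 at 800 nM. The C16 libraries were all above the DMSO ones at both doses, as were 11.6% of genes with a mean of 1 to under 10 at 400 nM and 11.4% at 800 nM, and neither difference passed the test (0.86, adjusted p = 0.244; 0.57, adjusted p = 0.428). Per kilobase of exon, EGFR was above ERBB2 by a ratio of 6.82 ± 1.62 (SD, n = 3) in the control, 9.93 ± 2.22 after PKR siRNA 1 and 3.43 ± 0.187 after PKR siRNA 2. The same ratio was 1.36 ± 0.331 in DMSO, and C16 brought 3.28 ± 0.704 at 400 nM and 3.71 ± 1.16 at 800 nM.

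AREG (chr4:74445098-74455009, plus strand) is a ligand of EGFR and the one whose promoter carried the CRE. The control libraries were at 25.7, 22.6 and 34.1 normalized counts. PKR siRNA 1 gave 15.6, 21.8 and 15.4, and PKR siRNA 2 gave 2.98, 4.29 and 3.76. Both PKR siRNA groups lay wholly below the control, and the PKR siRNA 2 libraries rested on only 3 to 4 reads each. Among all genes tested, 27.2% lay wholly below the control with PKR siRNA 1 and 28.4% with PKR siRNA 2. The share with both was not counted. AREG fell by 2.59 ± 0.32 on the log2 scale with PKR siRNA 2 (adjusted p = 1.03e-10). With PKR siRNA 1 the difference was -0.61 ± 0.32 (adjusted p = 0.114). That difference was past both thresholds in edgeR's quasi-likelihood test on the recovered reads (-0.64, adjusted p = 0.0302) and in a limma fit of only the groups compared (-0.61, adjusted p = 0.0393).

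In the C16 experiment AREG had 0 reads in all 3 DMSO libraries, which allows up to 3 reads over the group. The 400 nM libraries held 1, 3 and 2 reads and the 800 nM libraries 1, 0 and 1. Set against 3 reads over the DMSO group, the 6 reads at 400 nM were 2.47-fold higher at equal depth. The counting error of those 6 reads is not included, so this is not a lower bound. The limma fit without a filter called AREG raised at 400 nM (adjusted p = 0.00886), but edgeR did not (adjusted p = 0.0622), and the fit did not pass 1.5-fold with a pseudocount of 5. At 800 nM the reads were at or under the limit of 3 in both groups, and no fold is given.

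EREG (chr4:74365143-74388760, plus strand), a ligand of EGFR and ERBB4 and the neighbour of AREG, was at 67.8, 54.8 and 48.3 normalized counts with Control siRNA. PKR siRNA 1 gave 51.1, 53.5 and 66.6, and PKR siRNA 2 gave 10.9, 9.65 and 15.0. The PKR siRNA 1 libraries fell inside the control range, and those of PKR siRNA 2 were far below it. EREG fell by 2.18 ± 0.20 with PKR siRNA 2 (adjusted p = 2.9e-15). With PKR siRNA 1 the difference was 0.01 ± 0.20 (adjusted p = 0.983), with a 95% interval of -0.40 to 0.41. In the C16 experiment each DMSO library held 1 EREG read, the 400 nM libraries 9, 8 and 4 and the 800 nM libraries 5, 10 and 5. All C16 libraries were above all DMSO libraries. The ratio of reads at equal depth was 8.64 at 400 nM (95% exact interval for counting error only, 2.58 to 45.3) and 7.91 at 800 nM (2.35 to 41.6). The fit without a filter called EREG raised at both doses (2.13, adjusted p = 0.00218; 2.03, adjusted p = 0.00177).

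HBEGF (chr5:140332843-140346603, minus strand), a ligand of EGFR and ERBB4 that also serves as the diphtheria toxin receptor, was at 28.8, 25.8 and 23.7 normalized counts with Control siRNA. PKR siRNA 1 gave 45.5, 42.6 and 42.5, and PKR siRNA 2 gave 11.9, 10.7 and 15.0. The 3 groups were apart, with PKR siRNA 1 above and PKR siRNA 2 below the control. Of all genes tested, 24.5% lay wholly above the control with PKR siRNA 1 and 28.4% wholly below it with PKR siRNA 2. The share with both was not counted. HBEGF rose by 0.72 ± 0.23 with PKR siRNA 1 (adjusted p = 0.00804) and fell by 1.01 ± 0.23 with PKR siRNA 2 (adjusted p = 0.0002). With C16 it went from 5.83, 6.67 and 10.7 in DMSO to 20.2, 29.98 and 24.5 at 400 nM and 27.2, 37.8 and 33.4 at 800 nM. Every C16 library was above every DMSO library, and the ranges of the doses overlapped. HBEGF rose by 1.59 ± 0.27 at 400 nM (adjusted p = 5.39e-06) and by 1.98 ± 0.27 at 800 nM (adjusted p = 1.52e-08). The doses differed by 0.39 ± 0.27 (adjusted p = 0.362), with a 95% interval of -0.15 to 0.93.

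TGFA (chr2:70447280-70554015, minus strand), a ligand of EGFR, ranged from 2.15 to 4.11 normalized counts in the control, from 1.81 to 2.22 after PKR siRNA 1 and from 0 to 1.07 after PKR siRNA 2. The 3 PKR siRNA 2 libraries held 2 reads in all against 9 in the control, a ratio of 0.219 at equal depth (95% exact counting interval 0.023 to 1.06). The fit without a filter gave -1.30 (adjusted p = 0.0388), which edgeR did not call (adjusted p = 0.145). With C16 the libraries held 2, 3 and 2 reads in DMSO, 2, 5 and 8 at 400 nM and 10, 2 and 12 at 800 nM. The groups overlapped at both doses. TGFA did not pass the limma test at 800 nM (1.35, adjusted p = 0.0549), and edgeR called it raised (1.96, adjusted p = 0.00336).

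**Figure D2:**
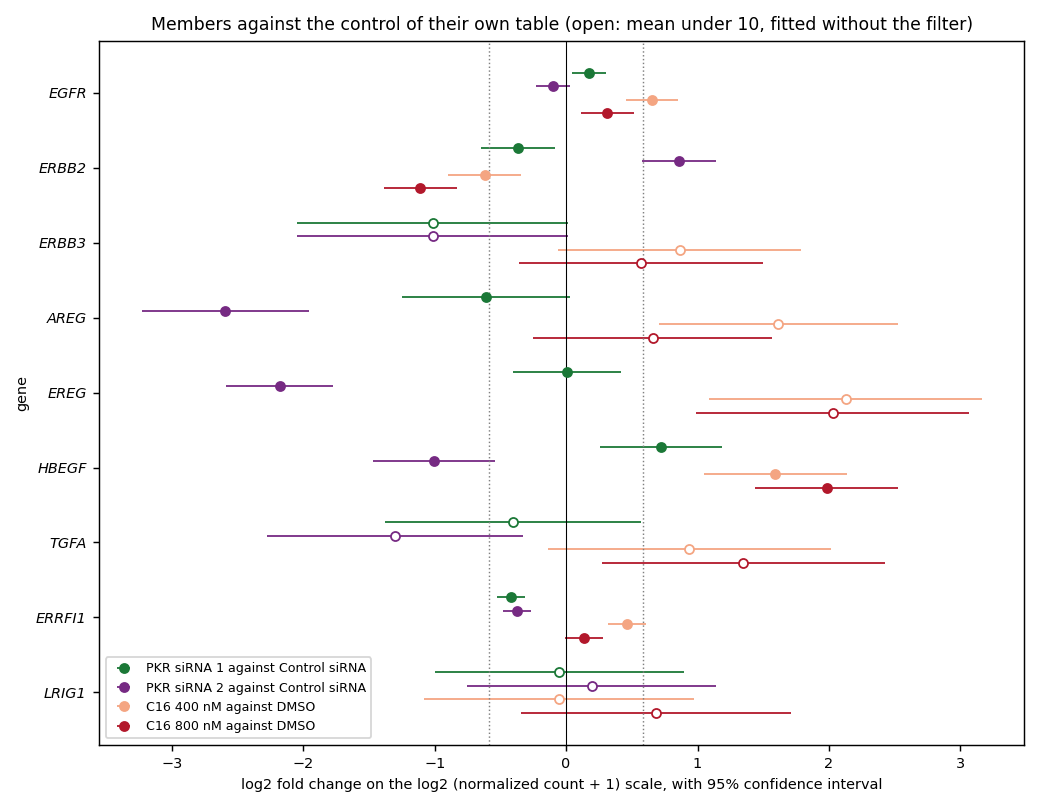
Log2 fold changes of the 9 members (horizontal axis, log2 of normalized count + 1) in each comparison with its control, with points for the limma estimate and bars for the 95% interval (open points, members read from the fit without a filter; dotted lines, 1.5-fold). AREG at -2.59 and EREG at -2.18 with PKR siRNA 2 lie farthest to the left, and HBEGF with C16 is at 1.59 and 1.98.

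Levels were compared between ligands per kilobase of exon. The 4 ligands summed to 45.5 ± 4.00 normalized counts per kilobase (SD, n = 3) in the control, 45.0 ± 2.04 after PKR siRNA 1 and 10.9 ± 1.44 after PKR siRNA 2. The total was therefore close between the control and PKR siRNA 1, and all PKR siRNA 2 libraries lay below. The makeup differed between those groups. AREG was 47.1% of the sum with Control siRNA and 30.5% with PKR siRNA 1, while HBEGF was 24.4% and 41.1%. With PKR siRNA 2, HBEGF was 48.7% of the smaller sum. The ligand sum was 3.91 ± 0.987 in DMSO, and C16 brought it to 15.1 ± 3.37 at 400 nM and 17.7 ± 1.90 at 800 nM, and HBEGF made up 82.7%, 70.2% and 78.4% of it.

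**Figure D3:**
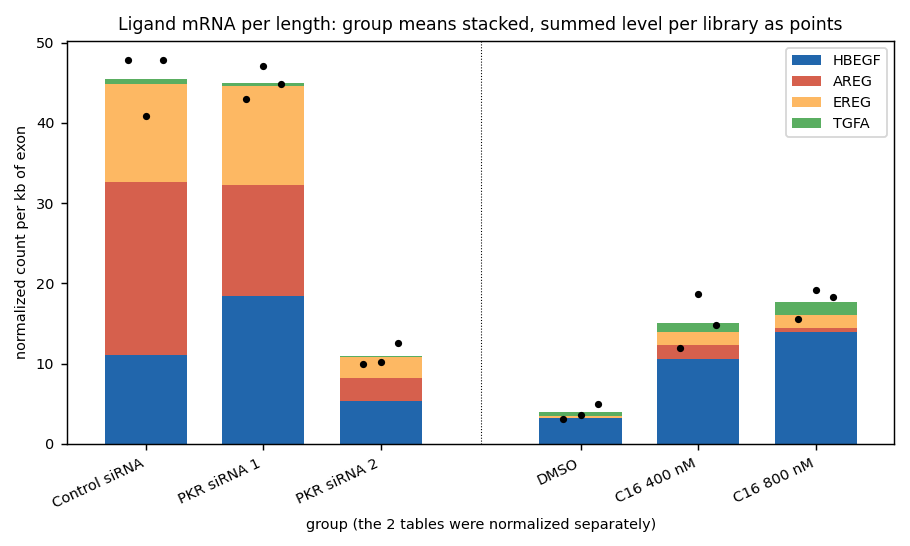
Level of AREG, EREG, HBEGF and TGFA per kilobase of exon (normalized counts per kilobase, vertical axis from 0) as stacked group means, n = 3 libraries a group, with the summed level of each library as a point; the experiments were normalized separately. The sum is 10.9 with PKR siRNA 2 against 45.5 with Control siRNA, and 17.7 with 800 nM C16 against 3.91 with DMSO.

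ERRFI1 (chr1:8011719-8026333, minus strand), a cytoplasmic protein that binds the EGFR kinase domain and blocks it, had the highest level of the 9 genes per kilobase in every group. The control libraries held 1183, 1133 and 1250 normalized counts, those of PKR siRNA 1 held 862, 873 and 925, and those of PKR siRNA 2 held 920, 964 and 872. Both PKR siRNA groups were wholly below the control and overlapped each other. Lying wholly below the control was seen for 27.2% of all genes tested with PKR siRNA 1 and 28.4% with PKR siRNA 2. The share with both was not counted. ERRFI1 differed from the control by -0.42 ± 0.05 with PKR siRNA 1 (adjusted p = 3.2e-10) and -0.37 ± 0.05 with PKR siRNA 2 (adjusted p = 1.24e-08), both under 1.5-fold. The siRNAs differed from each other by 0.05 ± 0.05 (adjusted p = 0.435), with a 95% interval of -0.06 to 0.16. DMSO libraries held 495, 539 and 509, and C16 gave 798, 671 and 669 at 400 nM and 533, 612 and 553 at 800 nM. As for EGFR, the 400 nM libraries were above all others. ERRFI1 differed from DMSO by 0.47 ± 0.07 at 400 nM (adjusted p = 7.56e-07, under 1.5-fold) and 0.14 ± 0.07 at 800 nM (adjusted p = 0.118), and the doses differed by -0.33 ± 0.07 (adjusted p = 0.00089, under 1.5-fold). The ratio of ERRFI1 to EGFR per kilobase was 4.78 ± 0.595 (SD, n = 3) in the control, 3.15 ± 0.172 after PKR siRNA 1 and 3.94 ± 0.307 after PKR siRNA 2. It was 5.34 ± 1.09 in DMSO, 4.66 ± 0.845 at 400 nM and 4.65 ± 0.181 at 800 nM.

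LRIG1 (chr3:66378797-66500421, minus strand), a membrane protein that promotes breakdown of the receptors, was low in all groups. Its lowest and highest libraries were at 2.84 and 8.59 normalized counts in the control, 4.44 and 6.35 after PKR siRNA 1 and 3.98 and 9.65 after PKR siRNA 2. They were at 2.28 and 12.4 in DMSO, 2.31 and 6.38 at 400 nM and 6.05 and 12.2 at 800 nM. All treated groups overlapped their control, and no comparison passed the test (log2 differences of -0.05 to 0.74, adjusted p of 0.377 to 1). The 95% intervals reached from -1.08 to 1.77, so changes of 1.5-fold were not detectable at this depth. LRIG1 shares 2.75% of its exon bases with SLC25A26 on the opposite strand.

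Per kilobase of exon the order with Control siRNA was ERRFI1, EGFR, AREG, EREG, ERBB2, HBEGF, LRIG1, ERBB3 and TGFA. The ranges of EREG, ERBB2 and HBEGF overlapped from one to the next, as did those of LRIG1, ERBB3 and TGFA. With PKR siRNA 1, HBEGF came next after EGFR and AREG and EREG followed with overlapping ranges. With PKR siRNA 2, ERBB2 came next after EGFR, ahead of HBEGF, AREG and EREG, and the ranges of AREG and EREG overlapped. With DMSO, ERBB2 stood at 23.5 ± 1.48 normalized counts per kilobase, next after EGFR at 31.7 ± 7.12, and AREG was last. With 800 nM C16, HBEGF at 13.9 ± 2.25 and ERBB2 at 11.0 ± 2.72 overlapped.

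The siRNAs were compared with each other directly, in a comparison that called 31.7% of all genes (16.4% raised, 15.3% lowered). ERBB2 was higher with PKR siRNA 2 than with PKR siRNA 1 by 1.22 ± 0.14 (adjusted p = 5.99e-12). AREG was lower by -1.98 ± 0.32 (adjusted p = 1.56e-07), EREG by -2.19 ± 0.20 (adjusted p = 1.58e-15) and HBEGF by -1.73 ± 0.23 (adjusted p = 1.04e-09). EGFR was -0.27 ± 0.07 apart (adjusted p = 0.000297, under 1.5-fold). EIF2AK2 itself was -0.31 ± 0.25 apart (adjusted p = 0.282, 95% interval -0.80 to 0.18). HBEGF with Control siRNA lay between both PKR siRNAs, and ERBB2 lay nearer to PKR siRNA 1.

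Of 8 other receptors and ligands of the family, only NRG1 and NRG2 reached the mean of 10 normalized counts for the test. EGF and BTC (betacellulin) were at 0 in all 18 libraries, and ERBB4, NRG3, EPGN and NRG4 had group means of at most 3.67 normalized counts. NRG1, a ligand of ERBB3 and ERBB4, fell from 89.8 ± 8.73 (SD, n = 3) in the control to 59.1 ± 7.93 under PKR siRNA 1 (log2 change -0.60, adjusted p = 0.00251) and 35.8 ± 13.8 under PKR siRNA 2 (-1.36, adjusted p = 1.49e-10). NRG2 was called lower with PKR siRNA 2 (-0.64). With C16, NRG1 was at 16.6 ± 2.11 in DMSO, 21.9 ± 1.49 at 400 nM and 13.8 ± 3.80 at 800 nM and did not pass the test at either dose.

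Beyond the members, 69 genes of the pathway were listed in 6 groups, of which 59 were tested with siRNA and 57 with C16. PKR siRNA 1 raised 3 and lowered 10 of them, and PKR siRNA 2 raised 5 and lowered 10, which is 22.0% and 25.4% called against 21.1% and 23.5% of all genes. C16 raised 4 and lowered 0 at 400 nM and raised 3 and lowered 4 at 800 nM, or 7.02% and 12.3% against 12.5% and 25.7% of all genes. The median log2 difference of the tested pathway genes was -0.07 with PKR siRNA 1, -0.01 with PKR siRNA 2, -0.02 at 400 nM and -0.02 at 800 nM. The shares called were thus near those of all genes with siRNA and below them with C16. The 0 lowered at 400 nM in limma was also 0 with edgeR and DESeq2, and 10 at an unadjusted p under 0.05 and any fold. In either direction, 16 pathway genes had an adjusted p under 0.05 at any fold in limma at 400 nM.

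Of the 9 genes for release of ligands from the membrane, 7 were tested with siRNA. ADAM17, the protease that sheds AREG, EREG, HBEGF and TGFA, fell with PKR siRNA 1 from 102 ± 4.05 to 61.1 ± 6.94 (log2 change -0.73, adjusted p = 2.83e-07) and rose with PKR siRNA 2 to 183 ± 17.5 (0.83, adjusted p = 7.67e-09). ADAM10, which sheds other ligands of the family, fell with PKR siRNA 1 from 337 ± 7.96 to 153 ± 6.87 (-1.13, adjusted p = 8.22e-21) and was at 315 ± 14.8 with PKR siRNA 2. ADAM9 rose with PKR siRNA 1 (0.93). ADAM15 rose with C16 from 40.5 ± 2.41 in DMSO to 73.0 ± 10.5 at 400 nM and 72.3 ± 8.67 at 800 nM (0.83 and 0.82), and RHBDF2, which carries ADAM17 to the surface, was lowered at 800 nM (-0.78). ADAM17 therefore moved in opposite directions with the siRNAs, and the direct comparison of PKR siRNA 2 with PKR siRNA 1 gave 1.57 (adjusted p = 7.04e-20).

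Among 11 adaptors, 10 of them tested, GAB2, a docking protein that links receptors to phosphoinositide 3-kinase, was called in 3 of the 4 comparisons with a control. It rose from 81.0 ± 10.2 to 157 ± 14.5 with PKR siRNA 1 (0.95, adjusted p = 1.53e-09). It rose from 29.0 ± 3.32 in DMSO to 63.4 ± 3.33 at 400 nM (1.10, adjusted p = 3.06e-07) and 73.8 ± 10.3 at 800 nM (1.31, adjusted p = 1.49e-09). With PKR siRNA 2 it was at 56.4 ± 2.27 (-0.51, under 1.5-fold). With PKR siRNA 2 limma, edgeR and DESeq2 called 0 adaptors, with 4 raised and 3 lowered at an unadjusted p under 0.05 and any fold. All 7 also had an adjusted p under 0.05 in limma and were under 1.5-fold.

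All 13 genes of the RAS and ERK cascade were tested. With PKR siRNA 1, NRAS fell (-0.74, adjusted p = 3.29e-11). With PKR siRNA 2, 4 fell and HRAS rose (0.72). With C16, BRAF rose at 400 nM (0.78, adjusted p = 0.0189) and ARAF fell at 800 nM (-0.96, adjusted p = 8.79e-07), each a kinase that relays the signal from RAS. ARAF shares 0.671% of its exon bases with SYN1 on the opposite strand.

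In the arm of phosphoinositide 3-kinase, phospholipase C, SRC and STAT, 3 of 10 genes were called lower with PKR siRNA 1. STAT3 fell from 689 ± 9.97 to 365 ± 5.68 (-0.91, adjusted p = 2.77e-23) and SRC from 64.9 ± 0.727 to 42.8 ± 5.32 (-0.59, adjusted p = 0.0028). With PKR siRNA 2, 2 of the 10 were called lower and 1 was raised. SRC was again among those that fell (-0.60, adjusted p = 0.00222), and PIK3R1, a regulatory subunit of the kinase, rose from 61.3 ± 17.0 to 129 ± 11.0 (1.09, adjusted p = 3.02e-09). STAT3 was higher but under 1.5-fold (0.58). At either C16 dose limma, edgeR and DESeq2 called 0 genes of this arm. At an unadjusted p under 0.05 and any fold, 1 was higher and 3 were lower at 400 nM, and 3 were higher and 6 lower at 800 nM. In limma 4 genes at 400 nM and 8 at 800 nM also had an adjusted p under 0.05, all under 1.5-fold. PIK3R2 was among the lower ones (-0.44 and -0.55).

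The list of receptor turnover and inhibitors had 18 genes, of which 17 were tested with siRNA and 16 with C16. RNF41, a ubiquitin ligase that directs ERBB3 to breakdown, fell from 82.0 ± 7.23 to 27.4 ± 4.85 with PKR siRNA 1 (-1.56, adjusted p = 3.89e-14) and from 59.2 ± 5.10 to 33.7 ± 1.99 with 800 nM C16 (-0.79, adjusted p = 8.55e-05). PTPRJ, a receptor phosphatase that acts on EGFR, fell from 441 ± 25.02 to 190 ± 2.13 with PKR siRNA 1 (-1.21, adjusted p = 1.54e-23) and from 156.9 ± 24.999 to 102 ± 13.9 with 800 nM C16 (-0.61, adjusted p = 1.95e-05). CBL, the ubiquitin ligase of activated EGFR, rose with C16 from 209 ± 16.2 to 339 ± 14.6 at 400 nM and 334 ± 6.39 at 800 nM (0.70 and 0.68), and with PKR siRNA 2 it was lower but under 1.5-fold (-0.49). SOCS4 fell with PKR siRNA 2 from 100.2 ± 4.49 to 49.0 ± 8.73 (-1.03, adjusted p = 4.27e-09), where CBLB and STAM2 rose (0.85 and 0.68). ADAM9, HRAS, CBLB, STAM2, NRG2 and RHBDF2 were named after their values were seen.

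**Figure D4:**
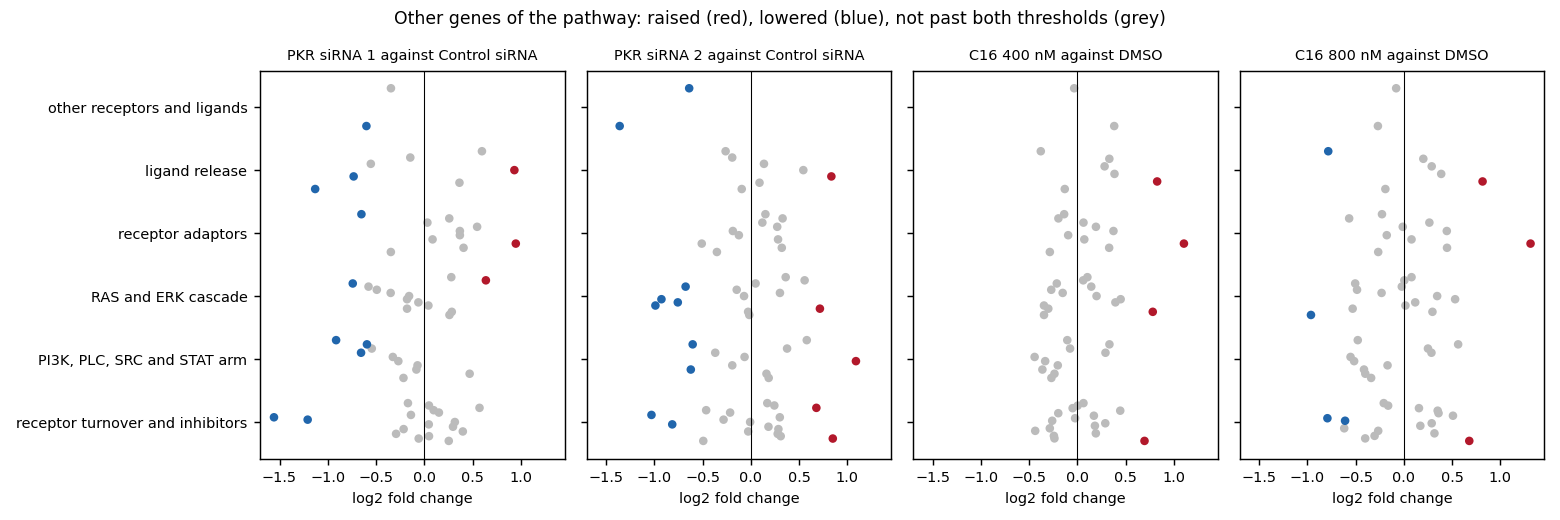
Log2 fold changes (horizontal axis, log2 of normalized count + 1) of the tested genes of the 6 pathway lists (rows) in the 4 comparisons with a control, with one point a gene, raised in red, lowered in blue and the rest in grey. GAB2 stands at 0.95 with PKR siRNA 1 and at 1.10 and 1.31 with C16, and RNF41 at -1.56 with PKR siRNA 1.

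The genes most like the 3 members with a mean of at least 50 in both experiments were sought by Pearson's r of log2(normalized count + 1), centred within each experiment, over 18 libraries and 5275 genes. The points share libraries and groups, so r is a description. For EGFR these were DYNC1H1 (0.93), UBR4 (0.90) and TSC22D2 (0.89). For ERBB2 they were CITED2 (0.95), CARHSP1 (0.94) and KHNYN (0.93), and for ERRFI1 they were ANGPTL4 (0.88), NES (0.84) and GDF15 (0.83). CITED2, a coregulator of transcription, was at -0.34 with PKR siRNA 1, 1.45 with PKR siRNA 2, -0.73 at 400 nM and -1.33 at 800 nM, the signs of ERBB2 in each. ANGPTL4, a secreted regulator of lipoprotein lipase, was at -0.73, -1.08, 1.33 and 0.57 in the same order, the signs of ERRFI1. Both genes were chosen by r over these same libraries, so the shared signs largely follow from that choice.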

How the data were processed

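RNA of PANC-1 cells was sequenced by the authors in 18 libraries (poly(A) selection, directional kit, paired reads). Reads were mapped by the authors to hg38 with TopHat and counted on genes with featureCounts. Versions, annotation and strand setting are not given in the sources used here. The deposited files hold a normalized signal for each gene, which is the count divided by a TMM factor of the library in TCC, unfiltered, in 2 tables that the authors normalized separately. Dividing by the value of 1 read gave whole reads for 100.0% of values in each library (tolerance 0.01 reads). For the first PKR siRNA 2 and first 800 nM C16 libraries that value is so near 1 that this could also be rounding. The number of columns not assigned to a sample was 0.

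Groups came from the sample labels. Each table was fitted alone with limma 3.58.1 (R 4.3.3), with an intensity trend and two-sided, on log2(normalized count + 1), over genes with a mean of at least 10, with Benjamini-Hochberg adjustment over all genes tested. Members with a lower mean came from a fit without that filter. Calls needed an adjusted p under 0.05 and a fold over 1.5, the thresholds of the study. The fit was tested on simulated data. Alternatives were the pseudocount, the filter, median-of-ratios rescaling, a fit of the compared groups alone, a block for the replicate number, edgeR 4.0.16 and DESeq2 1.42.0 on recovered reads, and leaving out each library. Replicates of a group differed beyond sampling noise (chi-square per degree of freedom 1.03 to 1.63), so none were merged. Intervals on reads cover counting error only.

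The named genes were the 9 members, EIF2AK2, and, of the pathway lists, genes called in at least 2 of the 4 comparisons with a control plus the largest fold change of each list in each comparison. For likeness they were the 3 genes with the highest r for each member. Some genes of these lists are counted but not reported here by name. The members and lists were chosen with earlier results of these data known. Promoters came from RefSeq (GRCh38.p14) by symbol, and gene positions from the deposited tables (hg38).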

Additional observations from a re-analysis of the deposited data

Results flagged for a closer look

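Between the siRNAs 4 members differed by the direct test of PKR siRNA 2 against PKR siRNA 1 in limma. ERBB2 differed by 1.22 on the log2 scale, with 117 to 123 normalized counts in all 3 PKR siRNA 2 libraries and 43.4 to 58.9 in all 3 of PKR siRNA 1. AREG differed by -1.98, EREG by -2.19 and HBEGF by -1.73, each lower in 3 of 3 PKR siRNA 2 libraries than in any PKR siRNA 1 library. HBEGF was on opposite sides of Control siRNA with the siRNAs (0.72 and -1.01), and ERBB2 was called only with PKR siRNA 2. In the same comparison 31.7% of all genes tested were called.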

How the results depend on the processing

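Of the 216 recalculated counts of members called, 202 stayed within 1.5 times the reported count. At a minimum mean of 30, raised members were 0 with PKR siRNA 1 (1 at a mean of 10), 1 at 400 nM (2) and 0 at 800 nM (1), and lowered members were 1 with PKR siRNA 2 (3) and 1 for PKR siRNA 2 against PKR siRNA 1 (3), because fewer members were tested. Without the filter, 4 were raised at 400 nM and 2 at 800 nM. Members lowered by PKR siRNA 1 were 1 in the fit of only the groups compared and 1 with edgeR (0 reported), which was AREG. Leaving out one library gave 1 to 2 raised and 0 to 1 lowered at 400 nM, and 0 to 1 lowered between the doses. EREG with PKR siRNA 1 changed sign around 0 when a library was left out (-0.11 to 0.14), as did ERBB3 between the siRNAs with a pseudocount of 5 (-0.003 against 0.0005). The cause was not tested. Rescaling moved the median of all genes by at most 0.0215. Same-numbered libraries did not deviate together (correlations of -0.0835 to 0.0794, 0 of 18 over 0.1). Much of the spread between replicates was sampling noise, which pairing cannot make alike. This check therefore could not decide whether the numbers paired the samples. With the replicate block as a term, every count of members called stayed the same, for example 3 lowered with PKR siRNA 2, where 1136 genes were raised and 1353 lowered against 1140 and 1353 without the block. Members with few reads are limited by depth.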
